A study of Homo sapiens with 9 samples.

Results

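The MYC and MAX network is a group of transcription factors that share a basic helix-loop-helix leucine zipper and compete for dimer partners and for the same DNA element. MYC binds DNA as a dimer with MAX and activates genes of growth, nucleotide synthesis and ribosome production. MXD1, MXI1, MXD3, MXD4 and MNT also dimerise with MAX, but recruit the SIN3 histone deacetylase complex and repress. MGA is a large MAX partner that belongs to a variant Polycomb complex, PRC1.6. MLX is a MAX-like protein that pairs with the glucose-sensing factors MondoA (MLXIP) and ChREBP (MLXIPL) and with some of the repressors. In myeloid cells MYC is typical of growing blasts, and MXD1 is known from cells that leave the cycle and mature. MXD3, in contrast, is known from proliferating cells.

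The members described here are the 9 genes MYC, MAX, MXI1, MXD1, MXD3, MXD4, MNT, MGA and MLX, and every probe that the platform annotation assigned to 1 of them. They are 9 of the 18662 genes named on the array, and have 18 of its 48803 probes, each reported separately. RNA came from THP-1, a human monocytic leukemia line, in 3 states with 3 arrays each. Cells were labelled fresh, frozen or replated. The series title concerns RNA from liquid nitrogen stocks, and the sources used here do not give how cells were frozen, thawed or cultured. The comparisons ask whether transcripts of the network differed between fresh cells, frozen cells and cells plated again. The design text calls the replicates biological without saying how they were separated, so p-values measure the spread between these arrays.

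Between 16898 and 17679 probes were detected per array, and the mean non-normalized signal lay between 299.6 and 367.1 intensity units. Of 12 monocyte and myeloid markers, 11 had a probe and all 11 were detected on all 9 arrays, among them CD14, LYZ, CSF1R, SPI1, MPO and CD68. Their summed non-normalized signal was 21107 to 23502 in fresh, 17492 to 21947 in frozen and 24137 to 27098 in replated arrays. Of 20 markers of other cell types, 18 had a probe, 15 of these were detected on no array, including CD3D, CD3E, HBB, VWF, COL1A1 and EPCAM, and the summed signal was 2182 to 2351, 1812 to 2246 and 2145 to 2374 in the same order. PECAM1, which monocytes also express, was the 1 marker of that list detected on all arrays, and MS4A1 and CD79A were detected on 6 arrays each. The monocyte sum was higher in every replated array than in every other array, as were several values below, and its part in them was not tested. By the test described below, 1 of the 11 markers, LYZ, was called in replated against fresh cells (list median log2 difference 0.04). Against frozen cells 2 were called, LYZ and FCGR1A (list median 0.11), so the sum does not describe the markers one by one.

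The element that network dimers bind is the E-box CACGTG. Promoter windows of 8 of the 9 members were matched by symbol in the RefSeq set for GRCh38.p14. The windows run from upstream of the transcript start into its first bases. MYC was the member without a matched window, so its promoter was not searched. The letters CACGTG, which read the same on both strands, stood in the windows of MXD4, MNT and MLX (3 of 8, or 37.5%). They stood in 7.26% of all 35116 windows of that length, which include genes that were not tested. Of tested genes with a window, 942 held the letters and 8032 did not. Members and tested genes were read by 1 window each, while the 7.26% counts every window. A count of 3 among 8 windows is small, and whether the members differ from other genes was not tested. Counted from the transcript start, their first base was at position -238 in MXD4, -193 in MNT and -50 in MLX. The related letters CACGCG, searched on both strands, stood in the MXD3 window (1 of 8, or 12.5%) and in 11.4% of all windows. A match is a run of letters and not a measured site. The windows of MXD4 and MNT are shown because these members differed between states, and that of MLX because it holds the same letters and its probe was not called. Each is written 5′ to 3′ on its own strand, from chr4:2262060-2262359 (minus strand), chr17:2401011-2401310 (minus strand) and chr17:42566850-42567149 (plus strand), with the CACGTG letters in capitals.
MXD4: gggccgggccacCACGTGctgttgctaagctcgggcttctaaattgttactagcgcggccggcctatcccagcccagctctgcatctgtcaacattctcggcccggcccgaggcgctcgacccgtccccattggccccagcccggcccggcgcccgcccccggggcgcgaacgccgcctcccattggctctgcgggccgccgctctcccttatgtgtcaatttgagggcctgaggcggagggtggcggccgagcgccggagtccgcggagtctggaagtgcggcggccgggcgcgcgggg
MNT: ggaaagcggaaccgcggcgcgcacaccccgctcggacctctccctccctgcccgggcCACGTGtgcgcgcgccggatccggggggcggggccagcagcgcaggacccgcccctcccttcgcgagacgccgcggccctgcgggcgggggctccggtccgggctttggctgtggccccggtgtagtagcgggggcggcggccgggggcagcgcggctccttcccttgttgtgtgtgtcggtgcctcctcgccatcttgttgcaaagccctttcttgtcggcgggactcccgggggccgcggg
MLX: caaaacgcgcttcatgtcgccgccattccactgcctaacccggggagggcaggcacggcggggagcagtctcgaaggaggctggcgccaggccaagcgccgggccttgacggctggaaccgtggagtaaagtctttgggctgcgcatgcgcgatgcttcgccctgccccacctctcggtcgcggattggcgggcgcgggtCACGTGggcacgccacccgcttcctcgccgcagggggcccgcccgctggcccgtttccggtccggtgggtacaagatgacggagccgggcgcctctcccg

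Of the 18 probes, 12 were detected on all 9 arrays, 4 on some and 2 on none. A probe was detected on an array at a detection p under 0.05, and a probe detected on at least 3 arrays was tested. This left 14 of the 18 member probes, and each of the 9 genes kept at least 1. The probes left out were MXI1 ILMN_1663497 and ILMN_1670570, which were not above background on any array, MGA ILMN_2372384, above it on 1 frozen array, and MLX ILMN_1792207, above it on 1 fresh array. Their non-normalized signals over the 3 states ran from 54.3 to 59.4 and from 51.9 to 63.6 for the MXI1 probes, from 62.8 to 71.1 for the MGA probe and from 58.5 to 78.4 for the MLX probe.

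**Figure D1:**
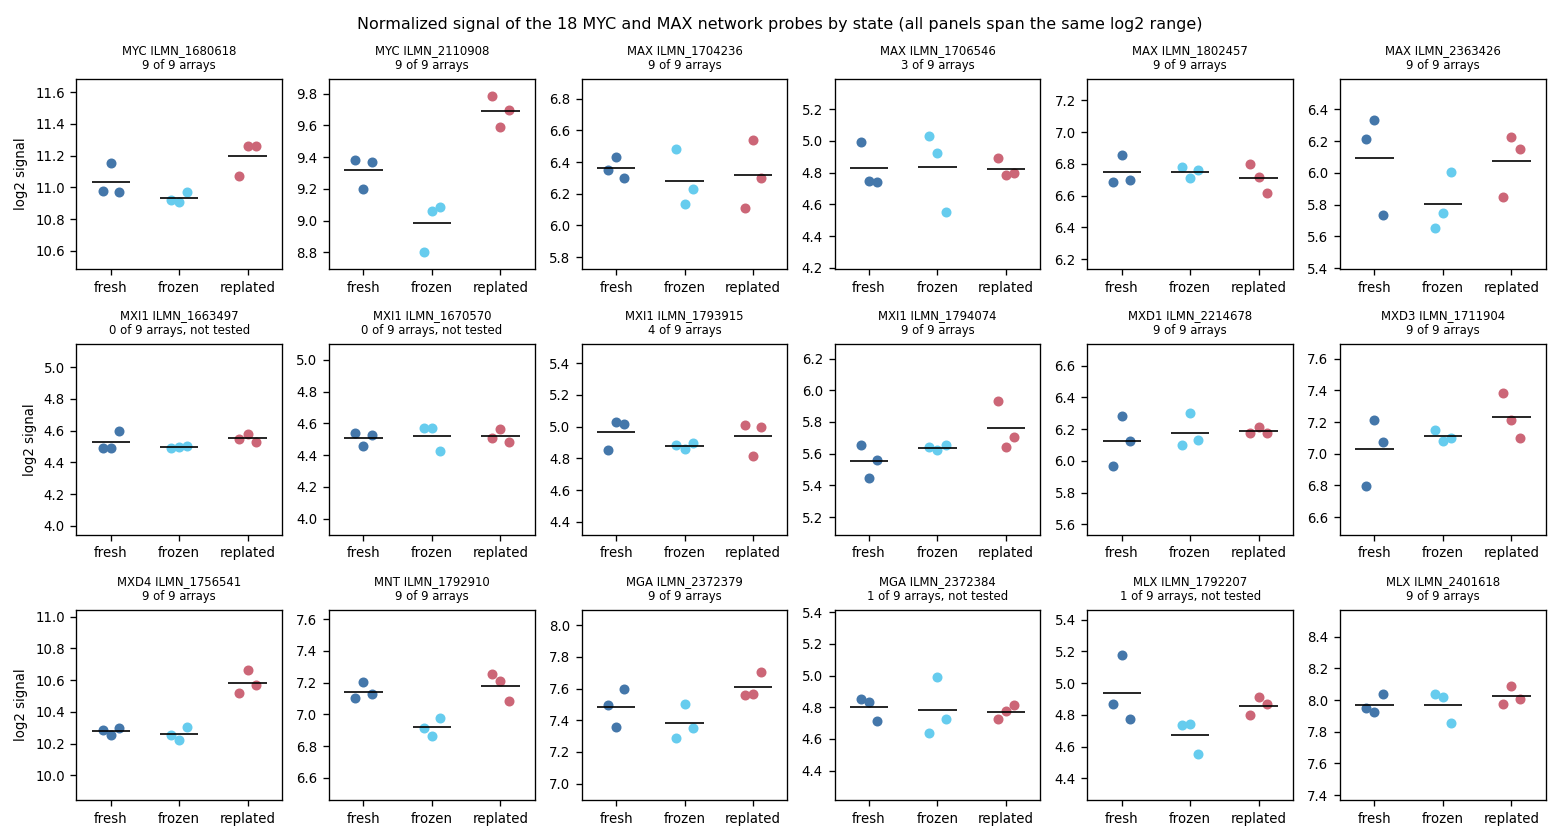
Normalized log2 signal (vertical axes, all spanning the same log2 range) of the 18 member probes in fresh, frozen and replated arrays. Points are arrays, bars are the means of 3 arrays, and the heading gives the gene, the probe and the number of arrays on which it was detected; the replated points of MYC ILMN_2110908 and MXD4 ILMN_1756541 lie above all fresh and frozen points.

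MYC was measured by 2 probes, both annotated to the same transcript, and both were highest in replated and lowest in frozen cells. The change passed the test on 1 of them, in replated against frozen cells. In RNA from whole cultures, fewer cells with a transcript and less of it per cell cannot be told apart. Probe ILMN_2110908 had log2 signals of 9.38, 9.20 and 9.37 in fresh, 8.80, 9.06 and 9.09 in frozen and 9.78, 9.59 and 9.70 in replated arrays. The 3 states did not overlap on this probe, with every frozen array below every fresh array and every replated array above both. Its non-normalized signals were 640.3 to 781.1, 490.5 to 526.7 and 813.6 to 930.5 intensity units in the same order. MYC on this probe rose 1.63-fold in replated against frozen cells (log2 difference 0.71 ± 0.095, adjusted p = 0.00188). Here and below ± after a log2 difference is limma's standard error with 3 arrays per state, and adjusted p is limma's p after Benjamini-Hochberg adjustment over all 18102 probes tested, called under 0.05. Against fresh cells the same probe differed by 0.37 ± 0.095 in replated cells (adjusted p = 0.0547) and by -0.33 ± 0.095 in frozen cells (adjusted p = 0.120), and neither passed. Among the 3 states it passed the moderated F test (adjusted p = 0.00510). The replated against fresh value lay close to the threshold. It passed under 6 of 19 alternatives, which were offset 50, no background correction, the stricter detection filter, array weights, a trended prior and the fit without frozen replicate 1 (adjusted p = 0.00215 to 0.0410).

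The other MYC probe, ILMN_1680618, had log2 signals of 10.98, 11.15 and 10.97 in fresh, 10.92, 10.91 and 10.97 in frozen and 11.07, 11.26 and 11.26 in replated arrays. Replated arrays were above all frozen arrays, but fresh arrays overlapped with both other states. Its log2 difference was 0.27 ± 0.080 in replated against frozen cells (adjusted p = 0.0558), 0.16 ± 0.080 in replated against fresh cells (adjusted p = 0.290) and -0.10 ± 0.080 in frozen against fresh cells (adjusted p = 0.549). The first of these passed under 7 of 19 alternatives, which were offset 50, no background correction, median centring, the stricter filter, array weights, a trended prior and the fit without replated replicate 1 (adjusted p = 0.00315 to 0.0426). The state means had the same order on both probes. Within an array, ILMN_2110908 minus ILMN_1680618 averaged -1.72 in fresh, -1.95 in frozen and -1.51 in replated arrays. Exact two-sided permutation tests of these gaps gave p = 0.3 in frozen against fresh cells (-0.23), p = 0.4 in replated against fresh cells (0.21) and p = 0.1 in replated against frozen cells (0.44). With 3 against 3 arrays p cannot go below 0.1, so whether the probes differed in size was not settled. Which part of the transcript each probe reads was not used here.

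MAX, the dimer partner of MYC and a partner of the repressors, showed no called difference on any of its 4 tested probes. ILMN_1802457 had the tightest values, 6.69, 6.86 and 6.70 in fresh, 6.78, 6.71 and 6.76 in frozen and 6.80, 6.72 and 6.62 in replated arrays. All 3 states overlapped. Its differences were 0.00 ± 0.075 in frozen against fresh cells (95% interval -0.16 to 0.17), -0.04 ± 0.075 in replated against fresh cells (-0.20 to 0.13) and -0.04 ± 0.075 in replated against frozen cells (-0.21 to 0.13). ILMN_1704236 differed by -0.08, -0.04 and 0.04 in the same order of comparisons. ILMN_2363426 had its lowest mean in frozen arrays, at 5.80 ± 0.18 against 6.09 ± 0.32 in fresh and 6.07 ± 0.20 in replated arrays (SD, n = 3), and differed by -0.29 ± 0.16 and 0.27 ± 0.16 in frozen against fresh and replated against frozen cells (adjusted p = 0.377 and adjusted p = 0.289). ILMN_1706546 was detected on 1 fresh, 2 frozen and 0 replated arrays, and its differences lay within 0.01 of 0. These 4 probes are annotated to different MAX transcripts.

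Among the MXD repressors, MXD4 was the member with a called difference. Its probe ILMN_1756541 read 10.28, 10.26 and 10.30 in fresh, 10.26, 10.22 and 10.31 in frozen and 10.52, 10.67 and 10.57 in replated arrays. Fresh and frozen arrays overlapped, and every replated array was above all 6 of them. MXD4 rose 1.25-fold in replated against frozen cells (0.32 ± 0.066, adjusted p = 0.0129) and 1.24-fold in replated against fresh cells (0.30 ± 0.066, adjusted p = 0.0325), while frozen against fresh cells differed by -0.02 ± 0.066 (adjusted p = 0.920, 95% interval -0.16 to 0.13). It passed the F test (adjusted p = 0.0194). The call against fresh cells was lost without any 1 of the 3 fresh or the 3 replated arrays (adjusted p = 0.0552 to 0.0979) at log2 differences between 0.27 and 0.34. The call against frozen cells held whichever array was left out, with an adjusted p of at most 0.0490.

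The other MXD and MXI1 probes had no called difference. MXD1, which is known as an early marker of myeloid maturation, read 5.97, 6.28 and 6.13 in fresh, 6.10, 6.30 and 6.13 in frozen and 6.17, 6.21 and 6.18 in replated arrays. In the order of comparisons used for MAX its differences were 0.05, 0.06 and 0.01, and all states overlapped. MXD3, known from proliferating cells, had means of 7.03 ± 0.21 in fresh, 7.11 ± 0.034 in frozen and 7.23 ± 0.14 in replated arrays (SD, n = 3), and its difference of 0.20 ± 0.11 in replated against fresh cells did not pass (adjusted p = 0.338). MXI1 was above background on all arrays with ILMN_1794074, whose means were 5.55 ± 0.10, 5.64 ± 0.017 and 5.76 ± 0.15 in fresh, frozen and replated arrays (SD, n = 3). Its largest difference was 0.21 ± 0.088 in replated against fresh cells (adjusted p = 0.220). The MXI1 probe ILMN_1793915, annotated to another transcript, was detected on 2 fresh, 0 frozen and 2 replated arrays and differed by at most 0.08 in size.

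MNT, the broadly expressed repressor that acts against MYC, was lowest in frozen cells. ILMN_1792910 read 7.10, 7.20 and 7.13 in fresh, 6.91, 6.87 and 6.98 in frozen and 7.25, 7.21 and 7.08 in replated arrays. Every frozen array lay below all 6 others, and fresh and replated arrays overlapped. MNT rose 1.20-fold in replated against frozen cells (0.26 ± 0.072, adjusted p = 0.0405). Its difference of -0.22 ± 0.072 in frozen against fresh cells did not pass (adjusted p = 0.155), nor did 0.04 ± 0.072 in replated against fresh cells (adjusted p = 0.821). The call was close to the threshold and was lost without any 1 of 7 arrays, namely fresh replicates 2 and 3, all 3 frozen replicates and replated replicates 1 and 2 (adjusted p = 0.0507 to 0.119).

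MGA and MLX had no called difference. MGA ILMN_2372379 read 7.50, 7.36 and 7.60 in fresh, 7.29, 7.50 and 7.35 in frozen and 7.56, 7.56 and 7.71 in replated arrays. Replated arrays were above all frozen arrays, fresh arrays overlapped with both, and the difference of 0.23 ± 0.087 in replated against frozen cells had an adjusted p of 0.115. MLX ILMN_2401618 had means of 7.97 ± 0.061 in fresh, 7.97 ± 0.10 in frozen and 8.02 ± 0.058 in replated arrays (SD, n = 3). Its differences were 0.00, 0.05 and 0.05 with standard errors of 0.075, and the 95% interval in replated against fresh cells was -0.11 to 0.22.

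Counted over the network, 0 of the 14 tested probes were called in frozen against fresh cells, where 1.02% of all probes tested were called (0.486% higher and 0.53% lower). Without adjustment, limma's p was under 0.05 for 2 member probes in this comparison (17.2% of all probes tested), for 3 between replated and fresh cells (20.0%) and for 5 between replated and frozen cells (28.9%). In replated against fresh cells 1 of 14 was called, higher, against 4.13% of all probes (2.22% higher and 1.91% lower). In replated against frozen cells 3 of 14 were called, all higher, against 11.6% of all probes (6.25% higher and 5.32% lower). The F test called 2 of 14, against 9.63% of all probes. Counts this small do not set the network apart from all probes. Arrays of the compared states did not overlap for 2, 2 and 5 of the 14 probes in the 3 comparisons, against 22.4%, 25.6% and 33.8% of all probes. The comparisons share arrays, so their values for a member are not independent. Member differences had medians of -0.05, 0.06 and 0.12, beside 0.01, -0.00 and -0.01 over all probes tested, and none of the 42 differences was larger in size than 0.71.

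**Figure D2:**
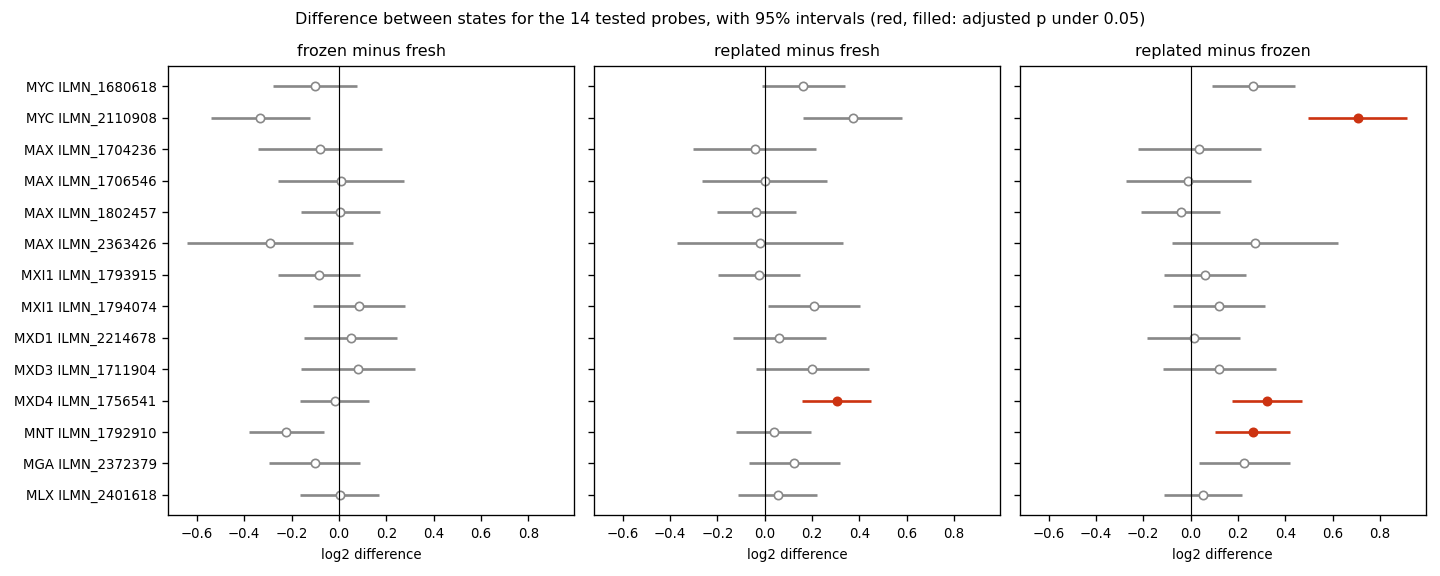
Log2 difference between states (horizontal axes) for the 14 tested member probes, with limma's 95% interval; red filled points have an adjusted p under 0.05. In replated against frozen cells 3 probes were called, MYC ILMN_2110908, MXD4 and MNT, and in frozen against fresh cells 0.

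Genes that MYC dimers are known to activate were described next, by a list of 71 genes, of which 64 had a tested probe. The list included genes of ribosome biogenesis, nucleotide and polyamine synthesis, replication, glycolysis, translation and the cell cycle, among others. A gene was read by its brightest tested probe. In replated against fresh cells 58 of the 64 lay below 0 and 6 above, with a median log2 difference of -0.17 beside -0.00 over the 10919 genes tested. Of these 7 fell, 0 rose and 57 did not pass; over all genes 4.59% were called, 2.44% higher and 2.15% lower. In replated against frozen cells 51 lay below 0, 13 fell, 2 rose and 49 did not pass, with the same median of -0.17 beside -0.00 over all genes, of which 12.1% were called, 6.6% higher and 5.5% lower. In frozen against fresh cells 33 lay above 0 and 31 below, 0 were called (0.952% of all genes, 0.467% higher and 0.485% lower) and the median was 0.01. Median centring, which put the median of all tested probes at -0.10 in frozen against fresh and 0.08 in replated against frozen cells, gave 57 targets below 0 in the former, with a median of -0.10. In the latter it gave 42 below 0, 4 that fell and a median of -0.08. Both MYC probes differed from fresh and frozen cells by values above 0 in replated cells, of which 1 was called.

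The genes that fell furthest in replated against fresh cells were FARSA, a subunit of phenylalanyl-tRNA synthetase (1.35-fold, adjusted p = 0.0118), SRM, spermidine synthase (1.31-fold, adjusted p = 0.0153), ODC1, the rate-limiting enzyme of polyamine synthesis (1.29-fold, adjusted p = 0.0174), and NOLC1, a nucleolar phosphoprotein (1.27-fold, adjusted p = 0.0230). ODC1 read 12.16, 12.17 and 12.14 in fresh, 12.24, 12.17 and 12.30 in frozen and 11.83, 11.71 and 11.84 in replated arrays. SRM read 9.66, 9.65 and 9.55 in fresh, 9.73, 9.63 and 9.76 in frozen and 9.22, 9.17 and 9.30 in replated arrays. Replated arrays were below all others for both genes, and in replated against frozen cells SRM fell 1.39-fold (adjusted p = 0.00329), NOLC1 fell 1.38-fold (adjusted p = 0.00305) and ODC1 fell 1.36-fold (adjusted p = 0.00365). EIF4E, the cap-binding translation factor, rose 1.46-fold in that comparison (adjusted p = 0.0268), as did PTMA, a small nuclear protein (1.46-fold, adjusted p = 0.0111), whose probe may also bind processed copies. NCL, the nucleolar protein nucleolin, differed by -0.12 and 0.02 in replated cells against fresh and frozen cells, NPM1, nucleophosmin, by 0.08 and 0.08, and CDK4, a G1 cyclin-dependent kinase, by -0.06 and 0.10, and these 3 genes passed in no comparison. The count of 7 fell to between 1 and 5 when 1 array was left out, reaching 1 without fresh replicates 1 or 2 or replated replicates 2 or 3, and the count of 13 was 8, 7 and 5 without frozen replicates 2 and 3 and replated replicate 3.

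Of the 64 target genes, 56 had a promoter window in the RefSeq set and 23 of these held CACGTG (41.1%). Of all 35116 windows 7.26% held it, and of all tested genes with a window 942 held it and 8032 did not. The median difference of the targets in replated against fresh cells was -0.16 with the letters (23 genes) and -0.17 without (33 genes). In replated against frozen cells the medians were -0.18 and -0.12. Over all tested genes with a window the medians in replated against fresh cells were -0.02 with the letters (942 genes) and 0.00 without (8032 genes). These shares and medians are descriptions, and no difference between them was tested.

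Of 18 genes listed here as repressed by MYC, 12 were tested. Over all genes 0.952% were called in frozen against fresh cells, 4.59% in replated against fresh cells and 12.1% in replated against frozen cells. Whether MYC represses each of them in these cells, ID2 included, was not tested. DUSP1, a phosphatase of MAP kinases that is also an immediate early gene, dominated the list, with 7.49, 7.74 and 7.85 in fresh, 11.47, 11.34 and 11.45 in frozen and 5.94, 5.64 and 5.87 in replated arrays. The states did not overlap, and it was the 1 gene of the list called in frozen against fresh cells, where it rose (3.73, adjusted p = 2.39e-08). In replated cells DUSP1 and ID2, an inhibitor of helix-loop-helix factors, fell against both other states, with 10 genes not called, and the list medians were -0.06 and -0.08. Against fresh cells ID2 fell 1.27-fold (adjusted p = 0.0444), with -0.21 on the second ID2 probe (adjusted p = 0.174). Against frozen cells ID2 fell 1.29-fold (adjusted p = 0.0187), with -0.18 on the second probe (adjusted p = 0.153). These calls on the brightest ID2 probe were lost under 13 and 4 of the 19 alternatives. CDKN1A, the cyclin-dependent kinase inhibitor p21, differed by -0.16, -0.21 and -0.05 in the 3 comparisons and did not pass.

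MLX itself had no called difference. A list of 10 genes known as targets of MLX with MondoA or ChREBP held members called in both directions. Whether MLX controls them in these cells was not tested. TXNIP, the arrestin-like inhibitor of glucose uptake and a standard readout of MondoA and MLX, read 10.80, 10.82 and 10.72 in fresh, 10.22, 10.16 and 10.18 in frozen and 11.13, 11.05 and 11.04 in replated arrays. The 3 states did not overlap, with frozen arrays lowest and replated arrays highest, which is the order of MYC ILMN_2110908. TXNIP fell 1.51-fold in frozen against fresh cells (-0.59 ± 0.065, adjusted p = 0.00185), rose 1.23-fold in replated against fresh cells (0.29 ± 0.065, adjusted p = 0.0339) and rose 1.85-fold in replated against frozen cells (0.89 ± 0.065, adjusted p = 3.06e-05). Its call against fresh cells in replated cells was lost in 6 of the 9 fits that left out 1 array, and its other calls were kept in all 9. ARRDC4, a paralogue with the same MondoA dependence, differed by 0.10, 0.03 and -0.07 and did not pass. Against fresh cells KLF10, a zinc finger repressor, fell 1.52-fold (adjusted p = 0.0102) and ARRDC3 fell 1.26-fold (adjusted p = 0.0314) in replated cells. There the other KLF10 probes differed by -0.20 and -0.48 (adjusted p = 0.622 and adjusted p = 0.0711) and the other ARRDC3 probe by -0.10 (adjusted p = 0.663), and none passed. By brightest probe, of 9 tested genes 1 rose, 2 fell and 6 did not pass (median 0.03), where 4.59% of all genes were called. In replated against frozen cells TXNIP rose, KLF10, ARRDC3 and HK2 fell and 5 did not pass (median -0.07), where 12.1% of all genes were called. In frozen against fresh cells TXNIP fell and 8 did not pass (median 0.04), where 0.952% of all genes were called. Counts on a list this short do not set it apart from all genes. Other probes disagreed in replated against frozen cells: the second HK2 probe was higher in replated cells (0.41, adjusted p = 0.0388), the second ARRDC3 probe differed by 0.02, and of the 2 other KLF10 probes 1 was also lower (-0.51, adjusted p = 0.0347) and 1 differed by 0.02.

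**Figure D3:**
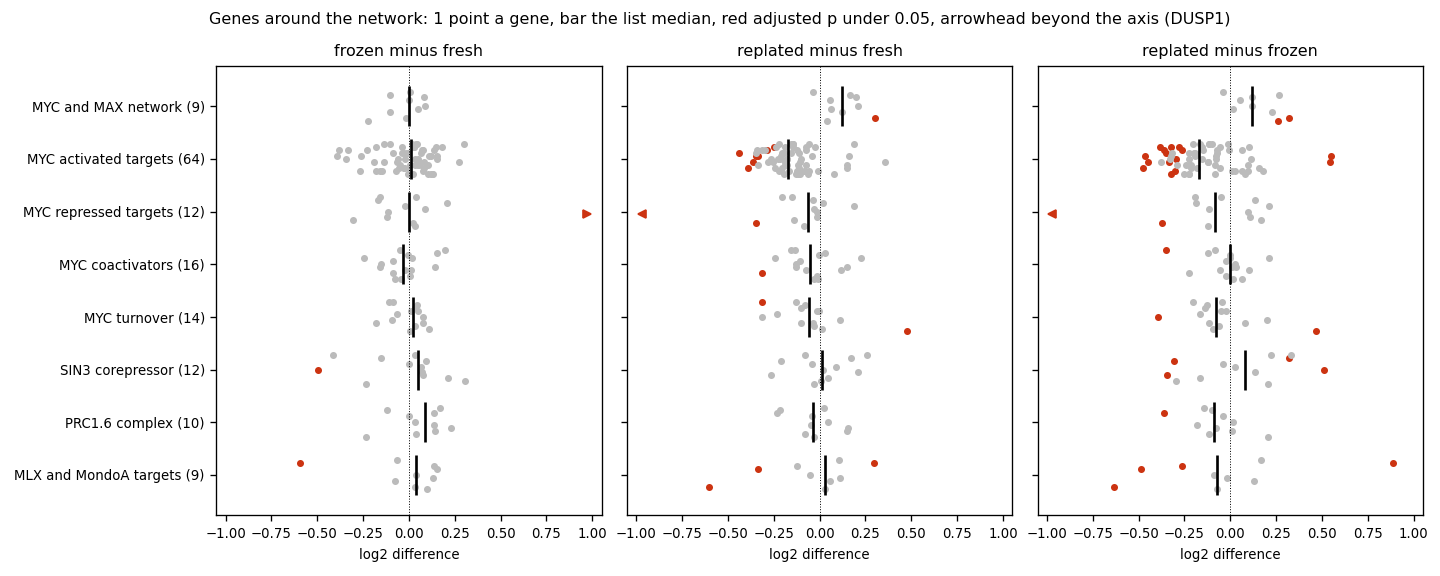
Log2 difference (horizontal axes) of the genes of the network and of 7 surrounding lists, 1 point per gene by its brightest tested probe, with the number tested in parentheses and the list median as a bar. Red points have an adjusted p under 0.05 and arrowheads mark DUSP1 beyond the axis; in replated against fresh cells 58 of 64 MYC activated targets lie left of 0.

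Other transcription factors that read the E-box or join the network were mostly not called. Of 13 listed, 9 were tested, and neither MYCN nor MYCL, the other MYC genes, nor MLXIP had a probe that passed the detection filter. BHLHE40, an E-box repressor, fell 1.40-fold in replated against fresh cells (adjusted p = 0.0234) and 1.55-fold in replated against frozen cells (adjusted p = 0.00378), as the 1 gene of 9 called in each. MLXIPL differed by -0.21, -0.13 and 0.07 and ZBTB17, the MYC partner MIZ1, by 0.05, 0.13 and 0.09. In frozen against fresh cells 0 of 9 were called, and the list medians were -0.05, -0.01 and 0.04. For this list and those below, the shares called over all genes were 0.952% in frozen against fresh cells, 4.59% in replated against fresh cells and 12.1% in replated against frozen cells. The lists are short, and no list was tested against these shares.

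The SIN3 corepressor, which MXD proteins and MNT recruit, was represented by 12 tested genes of 15. RBBP7, a histone-binding subunit, fell 1.41-fold in frozen against fresh cells (adjusted p = 0.0433) and rose 1.42-fold in replated against frozen cells (adjusted p = 0.00941). SAP18 also rose (1.25-fold) and BRMS1 (1.27-fold) and ING2 (1.24-fold) fell in replated against frozen cells. There 8 genes were not called, and 12.1% of all genes were called. In replated against fresh cells 0 of 12 were called. The other ING2 probe differed by -0.01. Medians were 0.05, 0.01 and 0.08.

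Of 16 genes listed here as MYC coactivators, MYC-binding proteins included, all were tested. In frozen against fresh cells 0 were called, and 1 fell in each replated comparison. They were MYCBP2 against fresh cells (1.24-fold, adjusted p = 0.0431) and RUVBL1, a helicase of the TIP60 complex, against frozen cells (1.28-fold, adjusted p = 0.0152), which also fell on its other probe (adjusted p = 0.0160). Of 14 tested genes of MYC turnover and phosphorylation, out of 17, FBXO32, a ubiquitin ligase subunit, rose 1.39-fold in replated cells against both other states (adjusted p = 0.0280 and adjusted p = 0.0146), with 0.18 and 0.24 on its other probe, which did not pass. STUB1, a chaperone-linked ubiquitin ligase, fell 1.24-fold against fresh cells, with 0.03 on its other probe, and PIM1, a kinase that phosphorylates MYC, fell 1.31-fold against frozen cells (adjusted p = 0.0202). FBXW7, SKP2 and HUWE1 were among those listed, and 12 of 14 genes did not pass in each replated comparison and 14 of 14 in frozen against fresh cells. Of 13 tested upstream regulators of MYC, out of 15, STAT5A rose 1.29-fold in replated against fresh cells (adjusted p = 0.0426) and 1.24-fold against frozen cells (adjusted p = 0.0452), and the rest were not called.

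PRC1.6, the complex that holds MGA, had 10 tested genes of 12, with 0 called against fresh cells in either state. PCGF6, its defining Polycomb ring finger subunit, fell 1.29-fold in replated against frozen cells on its brightest probe (adjusted p = 0.00571), while its other 2 probes differed by 0.04 and -0.08. Of 12 germ cell genes that PRC1.6 is known to silence, 5 passed the detection filter and 0 were called in any comparison, with medians of 0.08, -0.01 and -0.14. Among the monocyte markers LYZ, lysozyme, rose 1.81-fold in replated cells against both other states, FCGR1A, an Fc receptor, rose 1.19-fold against frozen cells, and 0 of 11 were called in frozen against fresh cells; of 3 tested markers of other cell types PECAM1 rose 1.20-fold in replated against frozen cells (adjusted p = 0.0496). Of the 43 calls named for genes outside the network, 27 were lost under at least 1 of the 19 alternatives, and 16 were kept under every one that gave a value (18 for DUSP1), among them those of DUSP1, LYZ and KLF10, and those of SRM, NOLC1, ODC1 and RBBP7 in replated against frozen cells.

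The genes whose signal over the 9 arrays was most like that of MYC ILMN_2110908 were LMO2, a haematopoietic LIM-domain factor (Pearson r = 0.98), PTTG3P (0.97), RECK (0.97), ZFP30 (0.97) and SMARCA2, a chromatin remodelling ATPase (0.97), out of 10918 other genes. For MYC ILMN_1680618 they were ELOVL1 (Pearson r = 0.97), LINC01089 (0.96), CITED2, a transcriptional coregulator (0.95), NBPF3 (0.93) and TMSB10 (0.92). The lists did not share a gene. The values describe 9 arrays that share their normalization, and were picked as the highest of many.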

How the data were processed

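Total RNA of THP-1 cells was extracted with a miRNeasy kit and labelled as biotinylated cRNA with a MessageAmp kit for Illumina arrays, per the labels' protocols. Per the file headers the deposited main table holds non-normalized signal, an intensity per probe on a linear scale, beside a detection score headed as a p value. The deposited score never fell as the signal of its own array rose (0 falls), so it was used as 1 minus the detection p. The authors' second table holds processed intensity with nearly the same set of values in every column (largest gap 0.109% of the top value), as quantile normalization gives. No source used here names the software.

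Signals were background-corrected and quantile-normalized with limma's neqc (limma 3.58.1, R 4.3.3, offset 16), which understates folds of dim probes. A probe was kept if 3 or more of the 9 arrays had a detection p under 0.05, which left 18102, and lmFit and eBayes over all 9 arrays (residual df 6) gave contrasts and an F test, adjusted over those probes by Benjamini and Hochberg. The number of arrays limits the precision. The platform annotation gave 27578 probes 1 gene symbol, gave 13 several and left 21212 unlisted. Current symbols came from Entrez IDs (27541) or accessions (12) of the GRCh38.p14 gene table. The members and gene lists were chosen with earlier results of these data known. Named list genes were, per list and comparison, up to 4 called genes with the largest difference and no overlap, and TXNIP, ARRDC4, NCL, ODC1, CDK4, NPM1, CDKN1A and DUSP1; MLXIPL, ZBTB17, MYCN, MYCL and MLXIP were added after their values were seen. Same-numbered arrays did not deviate together (correlations -0.048 to 0.047). Alternatives were other backgrounds, scalings, filters, priors, weights, a replicate block, the authors' values and each array left out.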

Additional observations from a re-analysis of the deposited data

How the results depend on the processing

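No value called for a member or named gene changed sign under the 19 alternatives. The rise of MYC ILMN_2110908 and of MXD4 in replated against frozen cells was called under all 19, that of MXD4 against fresh cells under 10 and that of MNT under 9. With the replicate number as a block, MXD4 against fresh cells (adjusted p = 0.0665) and MNT against frozen cells (adjusted p = 0.0724) were not called. Same-numbered arrays showed no shared deviation, and 3 of 9 arrays correlated best with their own number. The labels do not say what a number marks, so a shared culture or batch was not settled. MYC ILMN_2110908 was called lower in frozen than fresh cells with offset 50, no background correction, median centring or a trended prior (adjusted p = 0.0106 to 0.0382). Median centring put the median of all tested probes at -0.10 in frozen against fresh cells, where that MYC probe stood at -0.47. It left 8.46% of called probes higher there, against 47.8%, and 84.6% in replated against frozen cells, against 54.0%; the first share was also 34.5% with offset 50, 33.5% with no background correction, 35.8% with the stricter filter and 33.7% with a trended prior, but 53.8% with the replicate block and 66.7% with only the states compared. The cause of these changes was not tested.

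Probes called in the F test numbered 2914 with offset 50, 2877 with no background correction and 3346 with a trended prior, and 690 to 1394 with 1 array left out, against 1743. Member probes called there were 4 with offset 50 and 1 to 2 with 1 array left out. They were 3 with no background correction, median centring, the stricter filter or a trended prior. Settings that changed a count less are not all listed in this paragraph. In frozen against fresh cells 184 probes were called, against 542 with offset 50, 565 with no background correction, 827 with median centring, 366 with detection p under 0.01 on all arrays, 104 with the replicate block, 54 with only the states compared, 809 with a trended prior and 49 to 138 with 1 array left out; called member probes were 1, 1, 2 and 1 with offset 50, no background correction, median centring and a trended prior, and 0 with any 1 array left out, and MYC activated targets that fell were 3, 3, 3, 2 and 3 with offset 50, no background correction, median centring, the stricter filter and a trended prior. In replated against fresh cells 747 probes were called, against 1333, 1305, 468, 1199, 444 and 1532 with offset 50, no background correction, median centring, the stricter filter, the replicate block and a trended prior, and 244 to 682 with 1 array left out. Called member probes there were 2 with offset 50, no background correction, the stricter filter, array weights and a trended prior, 0 with median centring, the replicate block and only the states compared, and 0 to 2 with 1 array left out. MYC activated targets that fell were 14, 14, 4, 15, 4 and 20 in the order given for all probes, and 1 to 5 with 1 array left out. In replated against frozen cells 2095 probes were called. The count was 2954 with offset 50, 2918 with no background correction, 2522 with the stricter filter and 3245 with a trended prior. It was 1000 to 2017 with 1 array left out. Called member probes there were 5 with median centring and 4 with offset 50, no background correction, the stricter filter or array weights. They were 2 with the replicate block or only the states compared, and 2 to 3 with 1 array left out. MYC activated targets that fell were 24, 24, 4, 24 and 25 with offset 50, no background correction, median centring, the stricter filter and a trended prior. With 1 array left out they were 5 to 14. In replated against fresh cells 58 of the targets lay below 0 under every alternative that kept all arrays and all 64 genes; in replated against frozen cells this was 42 with median centring and 49 with array weights, against 51.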
